A study of Mus musculus with 11 samples.

Results

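Trp63 and the smooth muscle type contractile genes of myoepithelial cells were examined in mammary glands bearing PN1a or PN1b lesions. The 10 genes are Trp63, Acta2, Actg2, Myh11, Mylk, Myl9, Tagln, Cnn1, Tpm2 and Oxtr, and a gene entered by every probe set that the array annotation gives to that gene alone. By this rule 9 of the 10 genes were measured, with 10 probe sets in all (2 for Tpm2), out of 8251 genes with such a probe set. No probe set of Oxtr alone is in the annotation used here, so the oxytocin receptor was not analysed here. Both groups hold p53-/- mammary epithelial cells of Balb/c origin that had been transplanted into the cleared fat pads of wildtype syngeneic females, and glands were taken at 8 weeks post-transplantation (5 PN1a and 6 PN1b samples, each on its own array). PN1a and PN1b grew out on opposite sides of the same mouse and were passed on by serial transplantation, so each line stands for 1 original outgrowth. PN1a has a high and PN1b a low tumor-forming potential. Whole glands were extracted, so the RNA also holds the stroma, vessels, fat and leukocytes of the wildtype host. Trp53 itself was not analysed here.

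The mammary epithelium has an inner luminal layer that makes milk and an outer basal layer of myoepithelial cells that rests on the basement membrane. Myoepithelial cells are epithelial cells that carry the contractile apparatus of smooth muscle, and they squeeze milk out of the alveoli when oxytocin binds its receptor. The transcription factor p63, encoded by Trp63, is a defining nuclear marker of the basal layer, and loss of this layer is a classical sign that separates an invasive from a pre-invasive lesion. The contractile genes are also transcribed in vascular smooth muscle and pericytes, and in part in activated fibroblasts, whereas Trp63 is largely an epithelial gene.

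Transcription of the contractile genes depends on serum response factor, which binds a sequence called the CArG box, and in part on TEAD factors, which bind the MCAT element CATTCC. Read from the opposite strand this element is GGAATG. RefSeq promoter sequences (GRCm38.p6) were at hand for 6 of the 10 genes, Acta2, Cnn1, Myl9, Mylk, Oxtr and Tpm2, with the 250 bases before the annotated start of each. They are shown for Myl9 and Tpm2, the contractile genes that passed the test below, and for Acta2 and Mylk, whose levels ran closest together over the samples. All are written 5′ to 3′ in the direction of the gene, with a CArG or MCAT match in capitals.
Myl9, chr2:156775214-156775463, plus strand: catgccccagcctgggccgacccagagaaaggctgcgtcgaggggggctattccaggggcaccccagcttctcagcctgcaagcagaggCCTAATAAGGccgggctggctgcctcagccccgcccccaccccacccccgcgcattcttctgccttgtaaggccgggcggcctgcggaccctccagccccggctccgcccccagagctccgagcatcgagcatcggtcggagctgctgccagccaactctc
Acta2, chr19:34255374-34255623, minus strand: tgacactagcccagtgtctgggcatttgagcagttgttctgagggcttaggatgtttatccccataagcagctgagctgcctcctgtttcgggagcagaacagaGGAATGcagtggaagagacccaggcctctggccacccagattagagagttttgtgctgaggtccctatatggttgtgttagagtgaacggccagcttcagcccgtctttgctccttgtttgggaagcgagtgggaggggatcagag
Mylk, chr16:34784700-34784949, plus strand: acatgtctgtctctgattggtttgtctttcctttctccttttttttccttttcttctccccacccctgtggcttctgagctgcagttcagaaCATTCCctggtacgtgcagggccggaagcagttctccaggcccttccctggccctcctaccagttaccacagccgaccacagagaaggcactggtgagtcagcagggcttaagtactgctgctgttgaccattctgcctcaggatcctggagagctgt
Tpm2, chr4:43523555-43523804, minus strand: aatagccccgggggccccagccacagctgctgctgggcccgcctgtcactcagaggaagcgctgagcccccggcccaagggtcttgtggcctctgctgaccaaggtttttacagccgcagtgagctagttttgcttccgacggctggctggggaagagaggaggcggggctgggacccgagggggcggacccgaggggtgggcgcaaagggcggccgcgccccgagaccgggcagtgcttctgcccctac

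The CArG match of Myl9 reads CCTAATAAGG and lies 161 to 152 bases before the start. The MCAT matches lie 146 to 141 bases before the start of Acta2 and 158 to 153 bases before that of Mylk. Both motifs were searched on both strands in windows of the same length. A CArG box was counted only as CC, then 6 bases of A or T, then GG. It occurred in 1 of these 6 promoters and in 1.47% of 32851 promoters, and an MCAT element in 2 of the 6 and in 12.6% of all. Stretches 1 base off this CArG form were not counted, such as ccctatatgg and ccttgtttgg in the Acta2 window. The windows of Tpm2, Cnn1 and Oxtr held neither. A match is a description of the letters in the window.

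The values are linear intensities, quantile normalized by the authors, and were compared on the log2 scale with limma over all 12422 probe sets that are not array controls. Calls needed both a 1.5-fold difference and, after Benjamini-Hochberg adjustment, a p under 0.05. Every log2 fold change is PN1a minus PN1b. The number of arrays limits the precision, and since no source says that each sample came from its own mouse, the p-values reflect only how far these samples varied. The titles of all 5 PN1a samples and of PN1b 5 and PN1b 6 share 1 ending, while PN1b 1 to 4 carry others. What the endings mean was not stated in the sources read. PN1b 1 to 4 have titles written as ranges of numbers, which may or may not mean pooled mice. PN1a 1 and PN1a 2, whose titles are numbers where those of PN1a 3 to 5 are letters, stood apart. The summed intensity of 20 luminal markers was 444 for PN1a 1 and 1157 for PN1a 2, while the remaining 9 samples had 1689 to 2656, and that of 19 fibroblast and matrix genes was 1158 for PN1a 2 and at least 2713 elsewhere, up to 4842. For each gene of the rule the log2 fold change is therefore given also among the 7 samples that share a title ending and without PN1a 1 and PN1a 2.

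All 10 probe sets had a lower mean in PN1a than in PN1b, where 51.4% of all probe sets did. The median log2 fold change was -0.90, and -0.97 with 1 probe set for each of the 9 genes, against -0.01 over all probe sets. Those called lower in PN1a were 3 of the 10, for Trp63, Myl9 and Tpm2, where 1.62% of all probe sets were called lower. None of the 10 was called higher, where 0.869% of all were (201 lower and 108 higher). With each sample centred on its median the calls over all probe sets were 186 lower and 155 higher, so 54.5% of them lower in place of 65.0%, and the median of the 10 probe sets was -0.84. For 2 of the 10, those of Trp63 and Tpm2, every PN1a sample lay below every PN1b sample, as in 2.38% of all probe sets. At an unadjusted p under 0.05 stood 6 of the 10, against 18.9% of all. In whole glands, fewer myoepithelial cells and less RNA per myoepithelial cell cannot be told apart. The part of contractile RNA from vessels, pericytes and fibroblasts, and of a changed share of other cells such as macrophages, was not tested. All PN1a samples also share a title ending that most PN1b samples lack, so group and title ending are partly mixed.

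**Figure D1:**
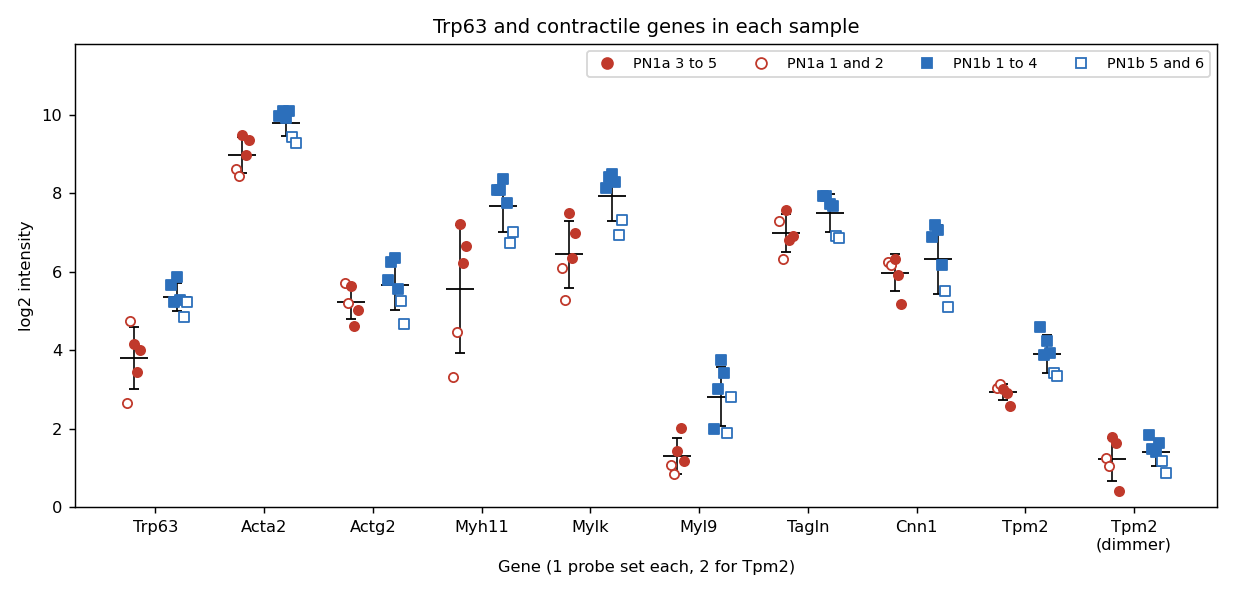
Log2 intensity (vertical axis) of each probe set in every sample, with PN1a as red circles and PN1b as blue squares. Open symbols mark PN1a 1 and 2 and PN1b 5 and 6, horizontal bars the group means, and error bars the SD (n = 5 and n = 6). The groups are apart for Trp63 and the brighter Tpm2 probe set, and the open squares sit at the low end of PN1b for most genes.

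Trp63 was lower in all PN1a lesions. Its intensity was 6.28, 26.7, 17.9, 10.9 and 16 in PN1a 1 to 5, and in PN1b it ran from 28.6 over a median of 38.5 to 58.5. The highest PN1a sample, PN1a 2, lay just under the lowest PN1b sample, PN1b 5, and the groups did not overlap. The mean log2 intensity of PN1a was 3.80 ± 0.79 (SD, n = 5) and that of PN1b 5.35 ± 0.36 (SD, n = 6). The log2 fold change was -1.55 (SE 0.33, 95% interval -2.25 to -0.85, adjusted p = 0.0262), or 2.93-fold lower in PN1a. With 16 added to the intensities before taking logs, it was -0.89 (adjusted p = 0.0214). Without PN1a 1 and PN1a 2 it was -1.48 (adjusted p = 0.0157). Among the samples of 1 title ending, which sets 5 PN1a against 2 PN1b samples, it was -1.24 (95% interval -2.38 to -0.09, adjusted p = 0.676). The call also ended with title ending as a random block (-1.50, adjusted p = 0.0522), and when PN1a 4, PN1b 1, PN1b 3 or PN1b 4 was left out (adjusted p = 0.0597 to 0.0687).

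The genes of the contractile filaments come next. Acta2 encodes smooth muscle alpha actin, a widely used tissue marker of myoepithelial cells, and Actg2 the gamma actin of smooth muscle. Acta2 intensity was 391, 350, 714, 498 and 657 in PN1a 1 to 5 and 622 to 1097 in PN1b, with a median of 982. PN1b 1 to 4 lay above all PN1a samples, and PN1a 3 exceeded PN1b 5 and PN1b 6. The log2 fold change of Acta2 was -0.82 (SE 0.24, adjusted p = 0.0863), and it did not pass the test. With a robust eBayes fit with trend (adjusted p = 0.0491), or with dim probe sets left untested (adjusted p = 0.0492), Acta2 was called lower. It was -0.53 without PN1a 1 and PN1a 2 (adjusted p = 0.310) and -0.38 within the shared title ending (adjusted p = 0.781). For Actg2 the PN1a samples had 24.6 to 52.0 and the PN1b samples 25.5 to 81.6, with overlap over most of that range. Its log2 fold change was -0.41 (SE 0.31, adjusted p = 0.509), -0.56 without PN1a 1 and PN1a 2, and 0.27 within the shared title ending, so its direction turned there. The Actg2 probe set is of a type whose probes can be shared by related genes, so other actins may add to its signal.

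Myh11, the heavy chain of smooth muscle myosin, had the widest spread. Its intensity was 9.92, 22.2, 148, 74 and 100 in PN1a 1 to 5, and 107 to 326 in PN1b with a median of 244. PN1a 1 and PN1a 2 lay far below all other samples, while PN1a 3 lay above PN1b 5 and PN1b 6. The log2 fold change was -2.10 (SE 0.61, adjusted p = 0.0816), a 4.30-fold difference that did not pass the test. The 2 low samples carried much of it, and without them the log2 fold change was -0.98 (adjusted p = 0.228). Within the shared title ending it was -1.31 (adjusted p = 0.751). Between PN1a 1 and 2 and PN1a 3 to 5 the difference of the log2 means was -2.80, more than that between the groups.

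Myl9 encodes the regulatory light chain of smooth muscle myosin, whose phosphorylation starts contraction, and its promoter held the CArG match shown above. Intensities were low, at 2.11, 1.79, 2.69, 4.06 and 2.25 in PN1a 1 to 5 and 3.71 to 13.5 in PN1b with a median of 7.56. PN1a 4 lay above PN1b 5 and PN1b 1, and the other 4 PN1a samples lay below all of PN1b. The log2 fold change was -1.51 (SE 0.34, adjusted p = 0.0374), or 2.85-fold lower in PN1a. The table starts at an intensity of 1, and with 16 added before taking logs the log2 fold change of Myl9 was -0.35 (adjusted p = 0.0836). The call held when PN1a 4, PN1b 1 or PN1b 5 was left out and ended with any of the other 8 samples left out (adjusted p = 0.0533 to 0.0912). It ended also with title ending as a random block (-1.44, adjusted p = 0.0730). It was -1.28 without PN1a 1 and PN1a 2 (adjusted p = 0.162) and -1.04 within the shared title ending (adjusted p = 0.668).

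Mylk encodes the kinase that phosphorylates this light chain. Its intensity was 68.1, 38.9, 181, 81.0 and 127 in PN1a 1 to 5 and 123 to 360 in PN1b with a median of 295. The order of the samples resembled that of Acta2, with PN1b 1 to 4 on top, PN1a 3, PN1a 5, PN1b 5 and PN1b 6 in the middle and PN1a 1, PN1a 2 and PN1a 4 at the bottom. The log2 fold change was -1.49 (SE 0.39, adjusted p = 0.0637), and among the limma fits it passed the test only when PN1a 3 (adjusted p = 0.0442) or PN1b 5 (adjusted p = 0.0310) was left out or when dim probe sets were not tested (adjusted p = 0.0419). It was -0.99 without PN1a 1 and PN1a 2 and -0.69 within the shared title ending.

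Tpm2, a tropomyosin that lies along the actin filament, was lower in PN1a in its brighter probe set. The intensity there was 8.22, 8.75, 8.11, 7.46 and 6.02 in PN1a 1 to 5, and 10.2 to 24.3 in PN1b with a median of 15. PN1a varied little, with an SD of 0.21 on the log2 scale, and the groups did not overlap. The log2 fold change was -0.97 (SE 0.24, adjusted p = 0.0476), close to the threshold, and the call ended when any of the 5 PN1a samples or PN1b 1 to 4 was left out (adjusted p = 0.0666 to 0.113). It ended too with 16 added before taking logs (-0.40, adjusted p = 0.0575), with each sample centred on its median (-0.91, adjusted p = 0.0568), with quantile normalization repeated (-0.90, adjusted p = 0.0540) and with title ending as a random block (-0.89, adjusted p = 0.0948). Without both PN1a 1 and PN1a 2 it was -1.07 (adjusted p = 0.0968), and within the shared title ending -0.45 (adjusted p = 0.691). The dimmer probe set of Tpm2 ran from 1.33 to 3.43 in PN1a and from 1.83 to 3.58 in PN1b, near the start of the table, and differed by -0.18 on the log2 scale (SE 0.26, adjusted p = 0.762). The probe sets of Tpm2 thus disagree in size, and the mean over both was -0.57 (adjusted p = 0.187).

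Tagln and Cnn1 encode transgelin and calponin, proteins that bind actin in differentiated smooth muscle. Tagln intensity was 80.4 to 191 in PN1a against 117 to 244 for PN1b, and its log2 fold change was -0.52 (SE 0.28, adjusted p = 0.330). Cnn1 intensity was 36 to 79.9 in PN1a against 34.1 to 145 for PN1b, and its log2 fold change was -0.35 (SE 0.39, adjusted p = 0.680). Without PN1a 1 and PN1a 2 these were -0.41 for Tagln and -0.51 for Cnn1. Neither passed the test, and PN1b alone spanned the whole PN1a range for Cnn1. Within the shared title ending the log2 fold change was 0.09 for Tagln and 0.67 for Cnn1, so both turned direction there. Cnn1 was measured by a probe set of a type that can match several transcripts.

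**Figure D2:**
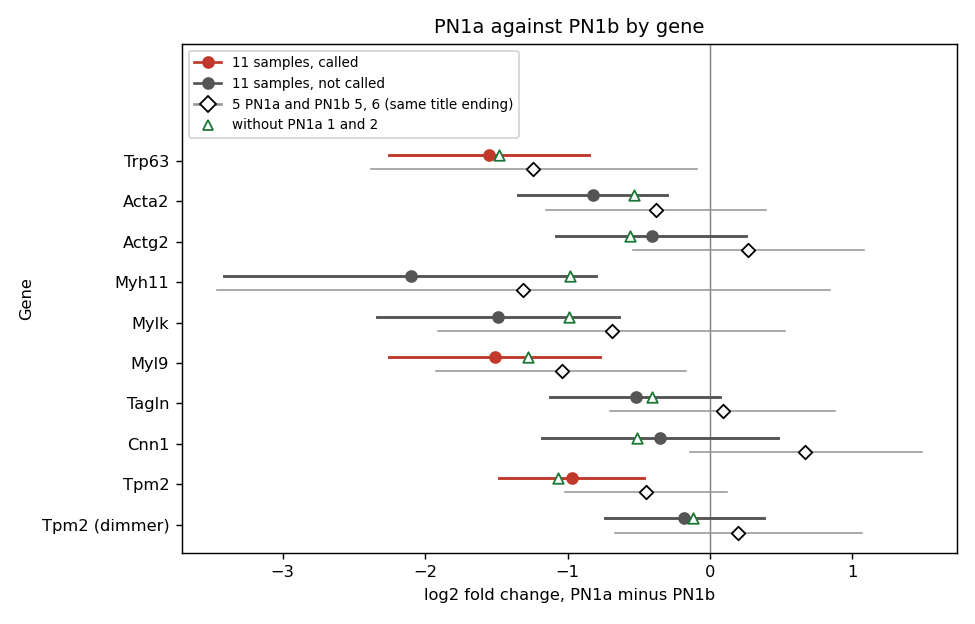
Log2 fold change (horizontal axis, PN1a minus PN1b) of each probe set over all 11 samples with its 95% interval, in red where called. Diamonds with thin lines give the value and interval among the 5 PN1a samples and PN1b 5 and 6, and triangles the value without PN1a 1 and 2. The intervals of Trp63 and Myl9 among the samples of 1 title ending stay below 0, and the Myh11 triangle lies at -0.98 against -2.10.

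Among the 7 samples that share a title ending 6 of the 10 probe sets remained below 0, with a median of -0.42 (-0.01 over all probe sets), and none was called lower, where 0.0966% of all were. At an unadjusted p under 0.05 there were 2 of the 10 (Trp63 and Myl9), against 7.32% of all. With the title ending as a fixed block the log2 fold changes are the same, since all PN1a samples carry the shared ending, and only their errors differ. None was called lower there, where 0.153% of all were, and 1 of the 10 had an unadjusted p under 0.05, against 9.84% of all. Without PN1a 1 and PN1a 2 the median was -0.77, and 1 of the 10, that of Trp63, was called lower, where 0.66% of all were.

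PN1b was itself divided. In all 10 probe sets the mean of PN1b 5 and PN1b 6 lay below that of PN1b 1 to 4, with differences of log2 means from -0.48 for Trp63 to -1.53 for Cnn1. For 9 of the 10, all but Myl9, PN1b 5 and PN1b 6 both lay below each of PN1b 1 to 4, as in 14.8% of all probe sets. Mylk differed by -1.20, Myh11 by -1.19, Tagln by -0.92 and Acta2 by -0.66. The summed intensity of 25 other basal genes was 1157 and 1163 in PN1b 5 and PN1b 6 against 1934 to 2065 in PN1b 1 to 4, and the part of that difference in these results was not tested. In PN1a the mean of PN1a 1 and PN1a 2 lay below that of PN1a 3 to 5 in 7 of the 10. The share over all probe sets was taken neither for this count nor for that of the PN1b means. Neither count can be read as particular to these genes. For 4 of the 10, Acta2, Myh11, Mylk and Myl9, both PN1a 1 and PN1a 2 lay below each of PN1a 3 to 5, against 19.1% of all probe sets.

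**Figure D3:**
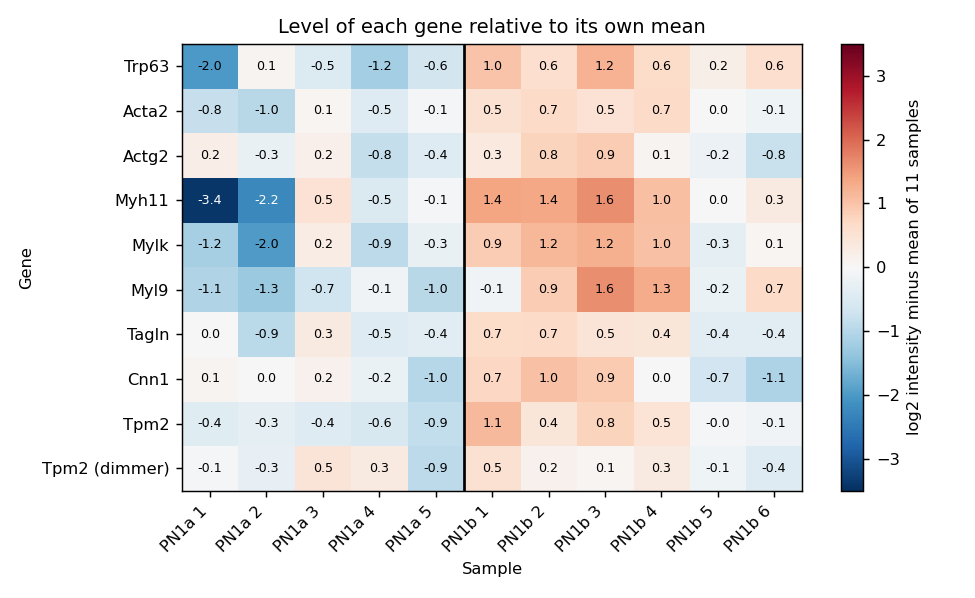
Log2 intensity of each probe set (rows) in each sample (columns) minus its own mean over the 11 samples, in red above and in blue below that mean, with the PN1a samples left of the line. Myh11 in PN1a 1 and PN1a 2 is the darkest blue, PN1b 1 to 4 are red or near 0 in all rows, and PN1b 5 and PN1b 6 lie below them in every row but Myl9, with PN1b 6 blue for Actg2 and Cnn1.

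The size of the Trp63 change was set against that of each contractile gene within the same samples, by an exact permutation test over the 11 samples (two-sided, 8 pairs). None of the 8 differences passed after adjustment. Relative to Cnn1, Trp63 was lower by a further log2 difference of -1.21 (p = 0.0346, adjusted p = 0.139 by the exact permutation test), relative to Actg2 by -1.14 (p = 0.0173, adjusted p = 0.139, exact permutation test) and relative to Tagln by -1.03 (p = 0.0649, adjusted p = 0.173, exact permutation test). Relative to Acta2 the difference was -0.73 and relative to Tpm2 -0.58. For Mylk, Myl9 and Myh11 it was -0.07, -0.04 and 0.55 (p = 0.961, 0.935 and 0.411, exact permutation test), with an SD of up to 1.48 in PN1a, which does not show that the changes were equal. In PN1a 2, Trp63 was the highest and Acta2 and Tagln were the lowest of PN1a. Without PN1a 2 the differences for Actg2 (-1.38), Tagln (-1.43) and Acta2 (-1.09) passed (adjusted p = 0.0254 for each, exact permutation test). With any other single sample left out none of the 8 passed. The smallest adjusted p there was 0.0952, without PN1b 2 (exact permutation test). Within the shared title ending the 8 differences ran from -1.91 for Cnn1 to 0.07 for Myh11, and without both PN1a 1 and PN1a 2 from -1.08 for Tagln to -0.21 for Myl9. None passed there, with 7 and 9 samples to permute. With 7 samples the splits are too few for a p under 0.05, so no difference could pass. With 9 samples a pass after adjustment needed several differences at the smallest possible p, so little can be read from its absence.

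Over the 11 samples Mylk and Myh11 followed Acta2 closely. Pearson's r of log2 intensities was 0.974 for Mylk and 0.925 for Myh11, and with the group means removed 0.942 and 0.847. Tagln followed at 0.820 (0.767 with group means removed) and Cnn1 at 0.434. Trp63 kept less close to Acta2 than Mylk, Myh11 and Tagln did. The r of Trp63 was 0.788 for Tpm2, 0.776 for Myh11 and 0.706 for Acta2, and 0.360, 0.495 and 0.236 with group means removed. Acta2 was itself no closer to Tpm2 (0.720, and 0.286 with group means removed), and its r with Actg2 was 0.556. These correlations describe 11 arrays that share 2 groups and the title endings above, and carry no test.

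**Figure D4:**
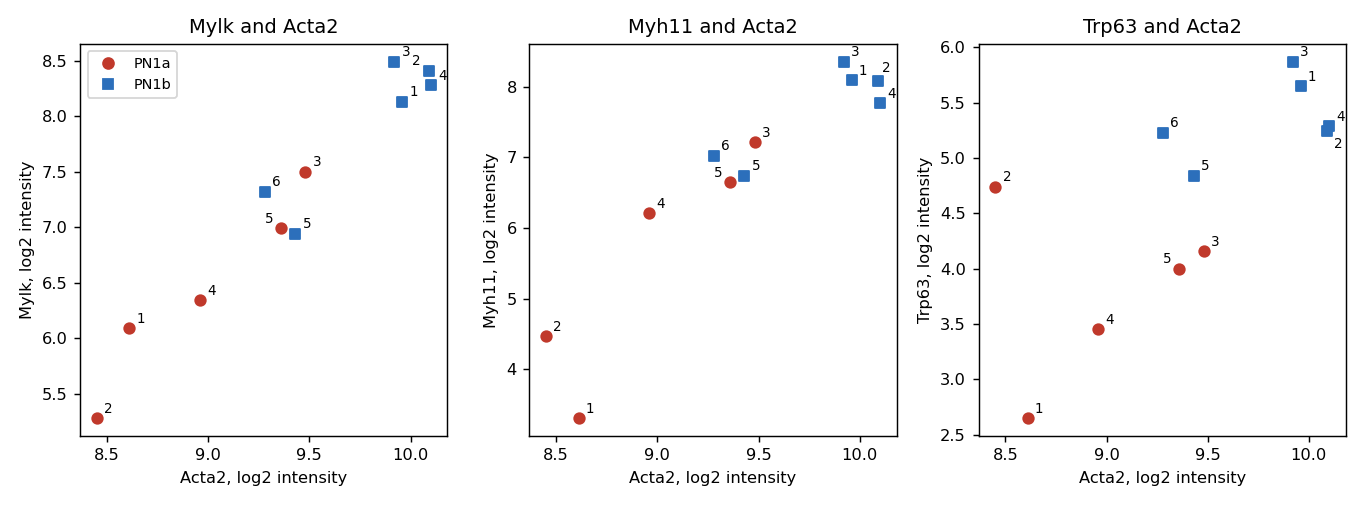
Log2 intensity of Mylk, Myh11 and Trp63 (vertical axes) against that of Acta2 (horizontal axes) in each sample, numbered, with PN1a as red circles and PN1b as blue squares. Mylk and Myh11 rise along 1 line with Acta2 over both groups, with PN1b 5 and PN1b 6 among the PN1a samples, while in the Trp63 panel all PN1b samples lie above all PN1a samples.

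Of all other genes, Tmpo, which encodes a protein of the nuclear lamina, had the pattern most like that of Trp63 (r = 0.968, and 0.912 with group means removed), with a log2 fold change of -0.81 (adjusted p = 0.0333). Next came Tmem266 at 0.941, Cisd1 at 0.939, Ndufb11 at 0.932 and Sfrp1, a secreted Wnt antagonist, at 0.929. Sfrp1 was called lower in PN1a, with a log2 fold change of -1.11 (adjusted p = 0.0242). The pattern of Acta2 was most closely matched by Mt1, a metallothionein, at 0.985, then by Sgpp1 at 0.977, Hadhb at 0.974, the peptide hormone gene Cck at 0.965 and Prpsap2 at 0.964. Of these, Cck was called lower in PN1a, with a log2 fold change of -3.98 (adjusted p = 0.0333). All these genes were picked by r over the 11 samples, group difference included, so a lower mean in PN1a is partly given by the choice. The calls of Tmpo, Sfrp1 and Cck were kept in 3, 6 and 5 of the 11 fits with a sample left out, and ended without PN1a 1 and PN1a 2 (adjusted p = 0.0590, 0.0693 and 0.0865) and within the shared title ending (0.672, 0.676 and 0.684).

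Other genes of the contractile machinery were read in the same fit. Of 31 further contractile and cytoskeletal genes 23 were measured, and their median was 0.17 on the log2 scale, against -0.01 over all probe sets. None was called lower and 1 was called higher, with 1 lower and 4 higher at an unadjusted p under 0.05. The latter was Csrp2, a LIM domain protein of smooth muscle, whose PN1a samples all lay above its PN1b samples (log2 fold change 1.20, SE 0.22, adjusted p = 0.0127). It was called whichever sample was left out, but not without both PN1a 1 and PN1a 2 (1.04, adjusted p = 0.0675) or within the shared title ending (0.76, adjusted p = 0.671). The brightest of the list, the cytoplasmic actins Actg1 (-0.08) and Actb (-0.33), the nonmuscle myosin Myh9 (0.32) and the tropomyosin Tpm1 (-0.25), did not pass the test. The other probe sets of Actb and Myh9 stood at 0.83 and 0.09. Of 25 regulators of contractile genes and of contraction 16 were measured and none was called by limma, with a median of -0.13 and 3 lower at an unadjusted p under 0.05. They include Mrtfa, a coactivator of serum response factor, at 0.15, and Rhoa, a GTPase that promotes contraction, at -0.02.

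Of 31 basal epithelial genes and p63 targets 25 were measured, with a median of -0.33, and 1 was called lower and 1 higher. Perp, a p63 target of desmosomes, was lower in all PN1a samples (log2 fold change -1.39, SE 0.30, adjusted p = 0.0310). The Perp call was kept with PN1a 1, PN1a 3, PN1a 5, PN1b 5 or PN1b 6 left out and ended with any other sample left out (adjusted p up to 0.0794), without both PN1a 1 and PN1a 2 (-0.97, adjusted p = 0.0693) and within the shared title ending (-1.14, adjusted p = 0.676). Igfbp3, which binds insulin-like growth factors and is repressed by p63, was higher in all PN1a samples, at 2.29 (SE 0.26, adjusted p = 0.00037) and at 2.61 in its other probe set. It was called whichever sample was left out and without both PN1a 1 and PN1a 2 (2.42, adjusted p = 0.00216), but not within the shared title ending (1.89, adjusted p = 0.172). Bright genes of the list that did not pass were the integrin Itgb1 at -0.49, Cav1 at -0.57 and the basal transcription factor Sox10 at -0.64. Their other probe sets stood at -0.37, 0.11 and 0.05. The basal keratins Krt5 and Krt14, named here after their values were seen, had log2 fold changes of -0.33 (adjusted p = 0.662) and -0.39 (adjusted p = 0.606), and Krt14 had a mean log2 intensity of 1.09, close to the start of the table. The other keratins of the list, also named after their values were seen, had values above 0, with Krt17 at 1.21 (adjusted p = 0.156), Krt6a at 0.69 and Krt15 at 0.14. Krt17 passed without PN1a 1 and PN1a 2 (1.99, adjusted p = 0.00274), and its other probe sets stood at 2.08 and -0.02. The median of the list was -0.07 without PN1a 1 and PN1a 2 and 0.23 within the shared title ending, so it turned direction there.

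Markers of other cells, which could hold contractile RNA or could differ in their share of the gland, were read in the same samples. Of 17 pericyte and vascular smooth muscle markers 11 were measured and none was called, with 3 lower at an unadjusted p under 0.05. Their summed intensity was 128 to 209 in PN1a against 140 to 193 for PN1b. PN1a 1 and PN1a 2 had 209 and 159, and PN1a 3 to 5 had 128 to 136, below all PN1b samples. The median of these markers was -0.00, -0.42 without PN1a 1 and PN1a 2 and 0.19 within the shared title ending. Rgs5 stood at 0.25, Pdgfrb at 0.33, Mcam at -0.00 and Notch3 at -0.77, none past the test. The other probe set of Rgs5 stood at -0.32. All 22 skeletal muscle genes were measured and none was called, with 1 lower and 3 higher at an unadjusted p under 0.05 (summed intensity 162 to 185 in PN1a and 150 to 192 in PN1b). Of 19 measured fibroblast and matrix genes none was called, and 0 had an unadjusted p under 0.05 (sums of 1158 to 4364 against 2713 to 4842). Of 13 endothelial markers none was called, with a median of -0.38 and 3 lower at an unadjusted p under 0.05 (sums of 159 to 479 against 347 to 505). That median was 0.03 without PN1a 1 and PN1a 2 and -0.76 within the shared title ending. The 20 measured luminal markers had a median of -0.23, with 5 lower and 4 higher at an unadjusted p under 0.05, and a sum of 444 to 2446 in PN1a against 1689 to 2656 in PN1b. Of these 20 markers, 12 had a log2 fold change below 0. The luminal median was -0.14 without PN1a 1 and PN1a 2 and -0.06 within the shared title ending. Krt8 (-1.25) and Krt18 (-1.40) were not called, and without PN1a 1 and PN1a 2 they stood at -0.51 and -0.53. The other probe set of Krt18 stood at -0.33 over the 11 samples. Cited1 was called higher (1.88, adjusted p = 0.0282), in 5 of the 11 fits with a sample left out, and also without PN1a 1 and PN1a 2 (2.51, adjusted p = 0.00367). Krt19 (2.63), Gata3 (1.44) and Muc1 (1.41), named after their values were seen, were not called over the 11 samples and were called higher in the latter fit (adjusted p = 0.00076, 0.0003 and 0.00211). Ehf (-1.34), Cldn4 (-1.16) and Erbb3 (-1.07), also named after their values were seen, went the other way and were called in neither fit. Every PN1a sample lay below every PN1b sample for Ehf. The 25 basal genes summed to 848 to 1966 in PN1a and to 1157 to 2065 in PN1b. The 12 adipocyte markers summed to 95 to 218 in PN1a and 253 to 312 in PN1b. Only 4 of the 12 had a log2 fold change below 0. Their median was 0.18, 0.42 without PN1a 1 and PN1a 2 and -0.29 within the shared title ending. Lpl, the brightest of them, was called lower (-1.81, adjusted p = 0.0415), with its other probe set at -0.66. Its call was kept in 3 of the 11 fits with a sample left out and without PN1a 1 and PN1a 2 (-0.94, adjusted p = 0.0307). The 15 macrophage markers summed to 1018 to 1647 in PN1a and 371 to 998 in PN1b. Their median was 1.21 on the log2 scale (0.77 within the shared title ending), and 4 were called higher, Aif1 (1.58, called in all 11 such fits), Ctss (1.29, in 3), Cd68 (1.11, in 3) and C1qb (2.20, in 2). The other probe sets of Cd68 and C1qb stood at 0.04 and 0.10. Without PN1a 1 and PN1a 2 Aif1 was called (adjusted p = 0.0245) and Ctss, Cd68 and C1qb were not (0.129, 0.0726 and 0.189). Within the shared title ending none of Cited1, Lpl and these 4 was called (adjusted p = 0.507 to 0.676). The part of these cell types in the results on Trp63 and the contractile genes was not tested.

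**Figure D5:**
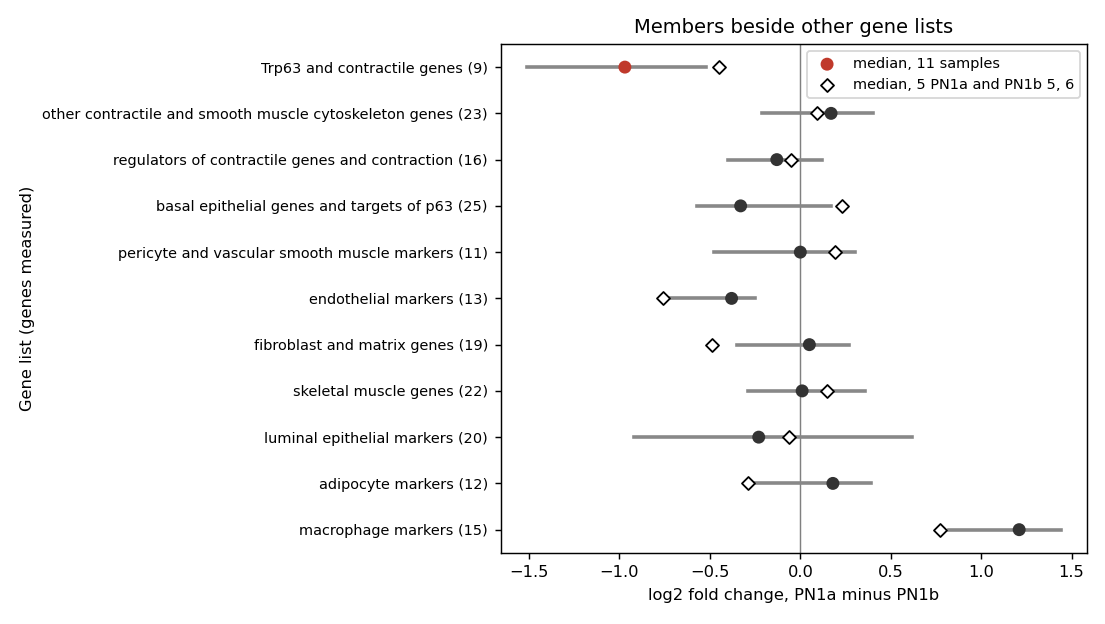
Median log2 fold change (horizontal axis, PN1a minus PN1b) of Trp63 and the contractile genes (red point, the brightest probe set of each of 9 genes) and of 10 other gene lists (black points), with lines from the lower to the upper quartile over the genes measured and diamonds for the median among the 5 PN1a samples and PN1b 5 and 6. Trp63 and the contractile genes lie at -0.97, other contractile genes at 0.17 and macrophage markers at 1.21.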

How the data were processed

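Total RNA of 5 PN1a and 6 PN1b samples was measured on Affymetrix MG_U74Av2 arrays. Linear intensity values of 12488 probe sets were deposited, which the authors had made in dChip (PM-MM model, quantile normalization; version not stated in the sources read). Subtracting mismatch signal makes low intensities imprecise. Intensities ran from 1 to 1938, with 0.817% at the lowest value. Sample medians were 8.57 to 9.51.

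From the deposited intensities log2 was taken without a pseudocount, 66 control probe sets were left out, and groups came from GEO's labels. The platform annotation gave the gene names, where 10833 probe sets carry 1 symbol, 396 several and 1193 none. PN1a and PN1b were compared with limma 3.58.1 under R 4.3.3 (eBayes on lmFit, two-sided, no covariate, Benjamini-Hochberg over 12422 probe sets). The step was tested on simulated data. The exact permutation tests used scipy 1.17.1, and figures matplotlib 3.10.9.

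The genes and the gene lists were chosen with earlier results of these data known. Named are all of these genes, of each list those called and up to 4 others of highest mean, and the 5 genes most correlated with Trp63 and with Acta2. In a list a gene is given by its brightest probe set. Alternatives were the t-test of the methods, title ending as fixed or random block and within 1 ending, quantile normalization repeated, centring, 16 added before log2, probe sets above the median alone, no fold threshold or one of 2, a robust eBayes with trend, averaging the probe sets of a gene, and samples left out. No pair of samples shared more than 1.24% of values, and each counted as a replicate.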

Additional observations from a re-analysis of the deposited data

How the results depend on the processing

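Of the 10 probe sets 3 were called lower in PN1a, and over all probe sets 201 lower and 108 higher. By the methods' t-test at an unadjusted p under 0.01 the counts were 5, 442 and 271, and after Benjamini-Hochberg 0, 95 and 50. With title ending as a fixed block they were 0, 19 and 12, as a random block 0, 104 and 58, and within the shared ending 0, 12 and 6. With 16 added before log2 they were 1, 148 and 65, and among probe sets above the median 4, 303 and 145. In the latter fit Myl9, the dimmer Tpm2 probe set and all others below the median were not tested. Its counts therefore have a smaller base. Without PN1a 1 and PN1a 2 together 1 of the 10 and 82 of all were lower. With 1 sample left out at a time, 0 (without PN1b 3 or PN1b 4) to 4 (without PN1b 5) of the 10 were lower, and 79 to 377 of all were lower and 44 to 182 higher. Under the fixed block and within the shared ending Actg2 turned to 0.27, Tagln to 0.09, Cnn1 to 0.67 and the dimmer Tpm2 probe set to 0.20. These settings give the same estimate by design, and both enter the counts of values below. The dimmer Tpm2 probe set ran from -0.32 to 0.03 with 1 sample left out. Trp63 minus Myh11 turned to -0.50 without PN1a 1 and PN1a 2, and Trp63 minus Mylk to 0.42 with 16 added. With 1 sample left out Trp63 minus Mylk ran from -0.59 to 0.13 and Trp63 minus Myl9 from -0.40 to 0.22. Over the single genes and differences, direction and side of the threshold were kept in 296 of 367 values and changed in 71 (20 turned direction, 41 were no longer past the threshold and 10 newly past it). Only the called probe sets of Trp63, Myl9 and Tpm2 had a call to lose, so all 41 came from these 3. With 1 sample left out their calls were kept in 7, 3 and 2 of 11 fits. The 296 include values never past the threshold, and differences within the shared ending that could not pass. The cause of these shifts was not tested. The 5 against 6 arrays, and low signal for Myl9 and the dimmer Tpm2 probe set, limit what can be told apart. No paired analysis was possible because the sample numbers follow accession order and pair no samples.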
